A study of Homo sapiens with 7 samples.

Results

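The libraries labelled sh8 were compared with the shlacZ control in 501Mel cells, a differentiated human melanoma line. All tested genes of the comparison were kept, that is, the 15420 of 21305 genes in the table with a mean of at least 10 normalized counts over the 7 libraries of the series. A normalized count is the read count of a gene after division by the size factor of its library. Every group carried a doxycycline-inducible short hairpin in the vector Tet-pLKO-puro and received doxycycline, so that the control cells shared the drug, the vector and the puromycin selection. The control hairpin was directed against lacZ, a bacterial gene (n = 3), sh8 against the long non-coding RNA GRASLND (n = 2), and the other hairpin against GRASLND was sh4 (n = 2). The cells were selected pools and not clones. The study lists hairpin targets as shGRAS1 and shGRAS2, and the labels do not say which of them is sh8.

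A short hairpin RNA is processed by Dicer into a guide strand that an Argonaute protein carries to matching transcripts. A full match leads to cleavage, whereas a short match between the 5′ end of the guide, its seed, and a 3′ UTR can lower other transcripts in the way of a microRNA. GRASLND was first described as a transcript that acts in cartilage formation, and it has been linked to the double-stranded RNA kinase EIF2AK2. In melanoma, cells move between a pigmented state held by the transcription factor MITF and less differentiated states.

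The reads counted in the 21305 genes, recovered from the normalized values, numbered 13337317 to 20916951 in the 5 libraries compared. These totals are not the number of reads sequenced. The sh8 replicates differed by a median of 0.21 on the log2 scale, and the shlacZ pairs by 0.16 to 0.32, with the first shlacZ library in both of the wider pairs. The labels do not say whether replicates were separate cultures, so p-values measure the spread between these libraries, which may be technical. The labelled cell type was checked by its markers. All 9 melanocyte markers were detected, and their summed level was 135977 to 146725 normalized counts in shlacZ and 102000 to 105138 in sh8, with none passing the test singly. Of the other cell types, only 3 of 7 fibroblast, 1 of 7 epithelial and 3 of 6 myeloid markers had a row, and their sums cover these alone. Fibroblast markers summed to 7.33 to 22.7 in shlacZ and 19.8 to 27.3 in sh8. The epithelial marker had 8.38 to 16.5 and 7.91 to 12.7, and the myeloid markers summed to 499.6 to 675.0 and 573 to 679. The 7 lymphocyte and 5 endothelial markers had no row in the table used here. All libraries came from pools of the same cell line, so a level of these other markers does not by itself show cells of another type. The part of these levels in the results was not tested. In bulk RNA, fewer cells that express a marker and less of its RNA per cell cannot be told apart.

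GRASLND itself was examined first, since it checks the label. GRASLND (ENSG00000228203, hg38, chromosome 2, 6911754 to 6918734, minus strand) had 309, 329.9 and 289.7 normalized counts in the shlacZ libraries and 227 and 163 in the sh8 libraries. Both sh8 libraries lay under all shlacZ libraries, with a mean 37.0% lower. The log2 fold change was -0.68 (SE 0.21) and did not pass the test (adjusted p = 0.110). An exact permutation test with the one-sided p doubled gave p = 0.2, the smallest value that this doubling allows with 2 against 3 libraries. In the sh4 libraries GRASLND had 175 and 131 normalized counts (limma log2 fold change -1.02, SE 0.21, adjusted p = 0.00662). The difference of sh8 from sh4 was 0.34 and did not pass (limma adjusted p = 0.421), which does not show that the hairpins lowered GRASLND alike. Of the other tested genes that start within 1000000 bases of GRASLND, RNF144A, which encodes a RING ubiquitin ligase and begins inside the GRASLND interval on the opposite strand, had 3365 ± 230.0 (SD, n = 3) normalized counts in shlacZ and 3479 ± 34.0 (SD, n = 2) in sh8 (log2 fold change 0.05, adjusted p = 0.871). LINC02973, the only other one, had 12.2 ± 6.94 (SD, n = 3) and 21.4 ± 7.06 (SD, n = 2) (adjusted p = 0.438).

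A total of 178 genes (1.15% of those tested) were called under sh8. A call required a limma adjusted p (Benjamini-Hochberg) below 0.05 together with a change of more than 1, in either direction, on the log2 scale. The calls comprised 100 higher genes (0.649%) and 78 lower genes (0.506%). Without the requirement on size, 451 genes passed the test (2.92%), with 213 of them higher (1.38%) and 238 lower (1.54%). The sh8 and shlacZ libraries did not overlap in any of the 178 calls, nor in 34.4% of all genes tested. The calls included 149 of the 11908 protein-coding genes tested (1.25%) and 25 of the 2569 lncRNAs (0.973%), both near the share over all genes. The median absolute log2 fold change of the calls was 1.43, and 31 calls passed 2. The count depended on single libraries, and it was 411 without the first shlacZ library, 108 without the second shlacZ library, 86 without the first sh8 library and 51 without the second sh8 library.

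**Figure D1:**
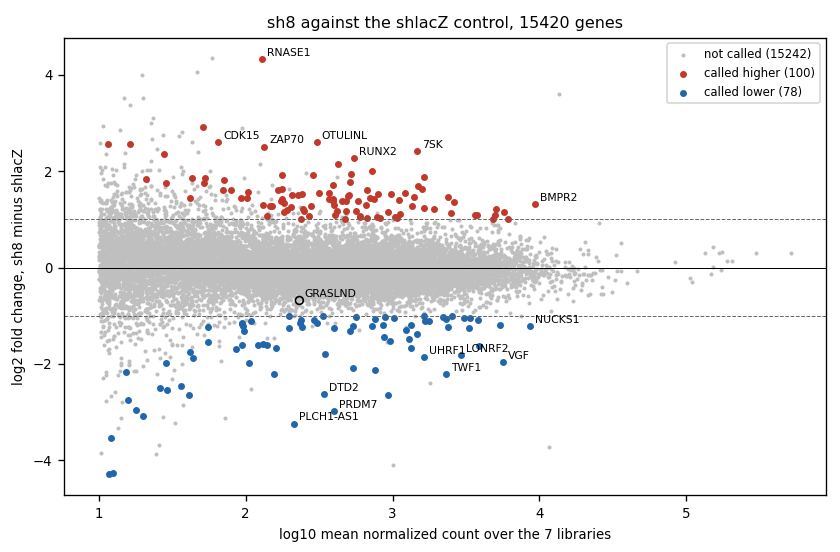
Log2 fold change of sh8 minus shlacZ for each of the 15420 genes (vertical axis) against the log10 of its mean normalized count over the 7 libraries (horizontal axis), with the 100 genes called higher in red, the 78 called lower in blue and dashed lines at a log2 fold change of 1 and -1. GRASLND, circled, lies between the dashed lines at -0.68, whereas TWF1 and UHRF1 are called at well over 1000 normalized counts.

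Among the genes that fell under sh8, a set stood close to the control under sh4, and many of its members shared a short sequence. Where a called gene was lower in sh8 than in sh4 by the direct comparison (adjusted p under 0.05 and a log2 difference over 1), the 3′ UTR often held the heptamer AAGGGTT. This heptamer lies in the target sequence listed for shGRAS2 and pairs with bases 5 to 11 of a guide that is the exact complement of that target. The sites below were read from the canonical 3′ UTRs of GENCODE 44 (hg38) and are shown because the genes carrying them fell under sh8 and were lower than under sh4. Capitals mark the heptamer, with 10 transcript bases on each side, and 1 site per gene is shown, although DTD2, UHRF1 and MGAT4B hold 2 and KCTD20 holds 3. DTD2, TWF1, UHRF1 and ANLN follow the rule for named genes, and the other 4 were chosen after their values were seen.
DTD2, chr14:31447111-31447137, minus strand: tgtaatatagAAGGGTTattgtgtgtt
TWF1, chr12:43795370-43795396, minus strand: aaagctagaaAAGGGTTcaacataatg
UHRF1, chr19:4961896-4961922, plus strand: tttcttttgaAAGGGTTtgttaatttt
KCTD20, chr6:36488951-36488977, plus strand: ggcctggattAAGGGTTaggattattt
MGAT4B, chr5:179797928-179797954, minus strand: gccccgcccaAAGGGTTctgcctggcg
COX7A2L, chr2:42350697-42350723, minus strand: ggtaatttcaAAGGGTTatttgcctca
EHD4, chr15:41900400-41900426, minus strand: taggagattgAAGGGTTgagaagaaag
ANLN, chr7:36452692-36452718, plus strand: ttaagtacgaAAGGGTTtgtgccaata

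The levels of these genes separated sh8 from both other groups. DTD2, a deacylase that clears mischarged tRNAs, had 420.1, 530.0 and 459 normalized counts in shlacZ, 62.0 and 90.1 in sh8 and 395 and 435 in sh4. Its log2 fold change was -2.63 (SE 0.20, adjusted p = 0.000605), and the difference from sh4 was -2.46 (adjusted p = 0.000896). TWF1, twinfilin 1, which binds actin monomers, had 2879, 3395 and 3157 in shlacZ, 743 and 612 in sh8 and 2483 and 2862 in sh4. The fall was 4.64-fold (log2 fold change -2.22, SE 0.13, adjusted p = 0.000213), and no sh4 library came near the sh8 libraries. UHRF1, which brings the maintenance methyltransferase DNMT1 to newly copied DNA, had 1844, 2528 and 2178 in shlacZ, 708 and 501 in sh8 and 1726 and 1909.9 in sh4. Its log2 fold change was -1.86 (SE 0.18, adjusted p = 0.00102), with a difference from sh4 of -1.61 (adjusted p = 0.00194). ANLN, anillin, a scaffold of the cleavage furrow, had 3695, 4128 and 3922 in shlacZ, 1789 and 1492 in sh8 and 3386 and 4868 in sh4 (log2 fold change -1.26, SE 0.16, adjusted p = 0.00374). The sh8 libraries were thus below every other library for each of these 4 genes.

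The remaining 4 genes printed above, chosen after their values were seen, also had their lowest values in sh8. KCTD20 had 4668, 5212 and 5534 normalized counts in shlacZ and 1467 and 1902 in sh8, with 4020.5 and 4362 in sh4. MGAT4B, which adds a branch to N-linked glycans, had 1056, 1225 and 1193 in shlacZ, 397 and 409 in sh8 and 1275 and 1204 in sh4. COX7A2L, which helps to join respiratory complexes into supercomplexes, had 1063, 1128 and 1149 in shlacZ, 388 and 431 in sh8 and 995 and 970.2 in sh4. In these 3 genes the sh8 values were below all others. EHD4, a membrane-shaping ATPase of endocytic recycling, had 513, 640.0 and 677 in shlacZ, 237 and 248 in sh8 and 569 and 725 in sh4. All 4 were called lower under sh8, with log2 fold changes of -1.62, -1.52, -1.44 and -1.32.

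The heptamer was counted in all 11860 protein-coding genes tested that have a 3′ UTR of at least 7 bases. It occurred in 30 of the 64 genes called lower (46.9%), in 10 of the 85 called higher (11.8%) and in 1323 of all 11860 (11.2%). Of the 18 genes called lower that were also lower than in sh4, 13 held it (72.2%), against 17 of the other 46 (37.0%). A single-base shift of the window, AGGGTTA, was found in 35.9% of the genes called lower and in 8.13% of all genes. The window at guide bases 2 to 8 of the same target, GGTTATA, was found in 12.5% and 8.46%. The window at bases 3 to 9, GGGTTAT, was found in 21.9% and 6.92%. For the windows of the target listed for shGRAS1, the corresponding shares among the genes called lower ran from 17.2% to 28.1%, with 11.5% to 17.4% of all genes. For those of the control hairpin they ran from 14.1% to 29.7%, with 17.6% to 20.3% of all genes. The highest, 29.7% at bases 2 to 8, stood beside 17.6%. The median 3′ UTR length was 1935.5 bases in the genes called lower and 1376 in all genes. Genes called lower made up 0.323% of the genes without the heptamer, 2.18% of those with 1 site and 2.81% of those with 2 or more. The heptamer was searched for after the results were seen and its part in the fall was not tested, nor was any pairing of sh8 with a listed target.

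Long 3′ UTRs hold more heptamers of any kind, and the median length was 1204 bases in genes without AAGGGTT and 3171 in genes with 1 site. The shares were therefore also taken within 3 classes of 3′ UTR length. Among UTRs of up to 773 bases, 3.90% of the genes with a site were called lower against 0.258% of those without. From 774 to 2235 bases the shares were 4.0% and 0.274%, and in longer UTRs 1.59% and 0.466%. Over all genes the shift was small. The median log2 fold change under sh8 was 0.057 lower in genes with AAGGGTT than in genes without, the lowest place among 14164 heptamers held by at least 200 genes, and under sh4 the same heptamer took place 7473. In the direct comparison of sh8 with sh4, AAGGGTT took place 10 (-0.069). Place 1 was held by GCGCTTC (-0.106), which is in none of the hairpin windows examined, and place 2 by AGGGTTA (-0.099). Library by library, the shift was -0.047 and -0.086 in sh8, 0.079, -0.051 and -0.036 in shlacZ (each against the other control libraries), and 0.005 and 0.008 in sh4. The small shift of the first sh8 library thus lay within the spread of the control libraries. That of the second sh8 library, at -0.086, lay below all of them, although a control library reached 0.079 in the other direction. The genes called lower that lacked the heptamer included MAGEC1 and VGF. Some genes called lower that held it fell further under sh4 than under sh8. Among these were RORB (log2 fold change -1.06 under sh8 and -2.57 under sh4), NFIB (-1.11 and -1.71) and CA8 (-1.25 and -1.51). The difference between the hairpins passed for RORB and not for NFIB or CA8.

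**Figure D2:**
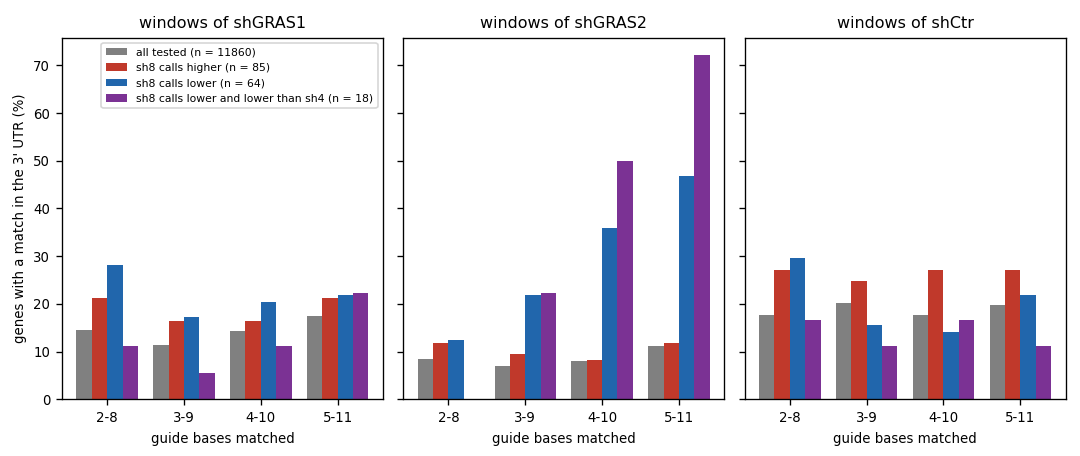
Share of genes (per cent, vertical axis) whose 3′ UTR held a heptamer matching the given guide bases (horizontal axis) of the targets listed for shGRAS1, shGRAS2 and the control hairpin shCtr, in all 11860 genes (grey), the 85 called higher under sh8 (red), the 64 called lower (blue) and the 18 called lower that were also lower than in sh4 (purple). The bars of the window at bases 5 to 11 of shGRAS2 reach 46.9% and 72.2%, against 11.2% in all genes.

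The direct comparison of sh8 with sh4 placed 41 of the 178 calls past the threshold, where 3.19% of all genes tested differed. The sh8 libraries enter both tests, and sh4 and sh8 share the shlacZ control. In 20 genes the fall under sh8 went below the sh4 level. Their median log2 fold change was -1.57 under sh8 and 0.07 under sh4. In 5 genes, namely ABCB5, CDH7, LINC02223, RORB and RDUR, the fall under sh8 was the shallower, with medians of -1.48 and -3.10. In 14 genes the rise under sh8 was the smaller, with medians of 1.63 and 3.44, and 2 genes, 7SK and ZNF608, rose above the sh4 level. For the remaining 137 calls the difference between the hairpins did not pass, which does not show that they acted alike.

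**Figure D3:**
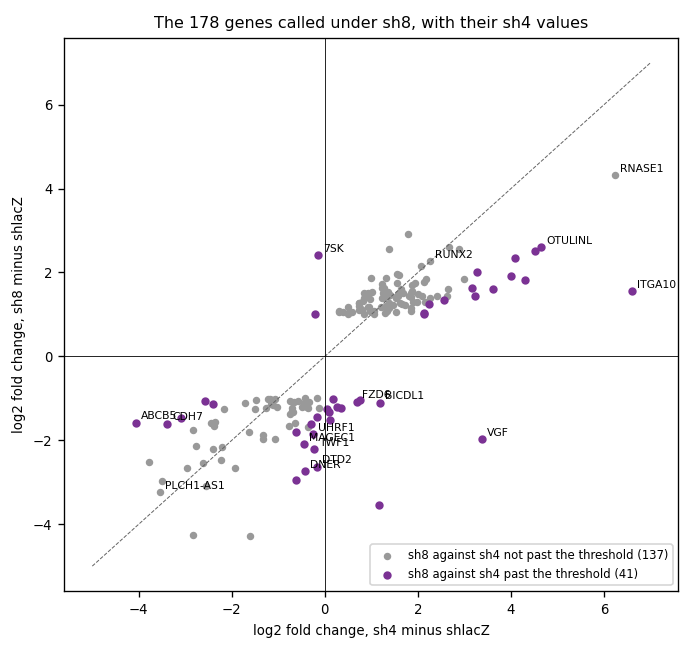
Log2 fold change against shlacZ of the 178 genes called under sh8, under sh8 (vertical axis) and sh4 (horizontal axis), with the 41 genes that passed the direct comparison of sh8 and sh4 in purple and a dashed line at equal change. DTD2, TWF1, UHRF1 and MAGEC1 lie low on the sh8 axis and near 0 on the sh4 axis, 7SK lies high on the sh8 axis only, and VGF has opposite signs.

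VGF and BICDL1 moved in opposite directions under the 2 hairpins. VGF, a neurosecretory protein precursor, had 1806, 1398 and 1648 normalized counts in shlacZ, 285 and 591 in sh8 and 16279.6 and 17362 in sh4. The mean was thus 3.70-fold below the control in sh8, a log2 fold change of -1.97 (SE 0.25, adjusted p = 0.00374), and the log2 difference from sh4 was -5.35 (adjusted p = 4.70e-05). BICDL1, a dynein adaptor, had 97.0, 70.2 and 104 in shlacZ, 40.9 and 41.0 in sh8 and 230.4 and 181 in sh4, with log2 fold changes of -1.11 (SE 0.25, adjusted p = 0.0459) and 1.19 (adjusted p = 0.00816). These were the only 2 of the 178 calls that were also called in the opposite direction under sh4. FZD6, a WNT receptor, had 305, 278 and 267 in shlacZ, 130.5 and 137 in sh8 and 454 and 459.7 in sh4. MAGEC1, a cancer-testis antigen from a multigene family, had 668, 890.3 and 729 in shlacZ, 189.8 and 165 in sh8 and 517 and 596 in sh4 (log2 fold change -2.09, SE 0.17, adjusted p = 0.000636). Its sh4 libraries also lay under the control, but the change of -0.45 did not pass (adjusted p = 0.0812).

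Of the 2 genes that rose above the sh4 level, the larger difference was that of 7SK, the small nuclear RNA that holds the elongation kinase P-TEFb in an inactive complex. 7SK (ENSG00000202198, chromosome 6, 52995620 to 52995950) had 473, 655 and 861 normalized counts in shlacZ, 4246 and 2772 in sh8 and 779 and 434 in sh4. The rise was 5.29-fold (log2 fold change 2.41, SE 0.30, adjusted p = 0.00342), and the difference from sh4 was 2.56 (adjusted p = 0.00269). Both sh8 libraries exceeded all others, although they differed from each other by more than 1000 normalized counts. The counts of the small RNA classes stand beside the 1.15% of all genes called. Of genes annotated as miscellaneous RNA, 1 of 26 was called (3.85%), namely 7SK. Of snoRNAs, 2 of 42 were called (4.76%), namely SNORA81 and SNORA53. Of snRNAs, 0 of 14 were called, and limma also passed none at the adjusted p alone. Counts this small are not read as a result about a class. SNORA81 had 654, 560.4 and 635 in shlacZ, 1644 and 2439 in sh8 and 2255 and 2285 in sh4, so that both hairpins lay above the control. How fragments of such short RNAs were retained in these libraries is not given in the sources used here. SNORA81, SNORA53 and ZNF608 were chosen after their values were seen. ZNF608, a zinc finger protein, had 977, 883 and 735 in shlacZ, 1827 and 1665 in sh8 and 723 and 759 in sh4.

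Outside that set, the deepest falls among genes with a symbol were those of PLCH1-AS1, PRDM7 and UBAP1L, in which the sh4 libraries lay as low as the sh8 libraries. PLCH1-AS1, an antisense lncRNA, had 591, 415 and 320.1 normalized counts in shlacZ, 52.7 and 37.3 in sh8 and 56.5 and 22.4 in sh4 (log2 fold change -3.24, SE 0.39, adjusted p = 0.00308). Whether the counting used the strand is not given in the sources used here, so reads of PLCH1 itself may be included. PRDM7, a histone methyltransferase closely related to PRDM9, had 1394, 572 and 513 in shlacZ, 116 and 74.6 in sh8 and 101 and 41.0 in sh4, and reads may be split between the paralogs. UBAP1L had 2994, 1586 and 985 in shlacZ, 339 and 207 in sh8 and 298 and 154 in sh4. In these genes the first shlacZ library was the highest, and the groups did not overlap.

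Other named genes that fell were the following. LONRF2, a RING ubiquitin ligase, had 4752, 5264 and 4599 normalized counts in shlacZ and 1466 and 1308 in sh8 (log2 fold change -1.81, SE 0.12, adjusted p = 0.000213), and sh4 was close, with 1511 and 1617. PI15, a secreted peptidase inhibitor, had 1623, 1367 and 1273 in shlacZ and 308 and 337 in sh8 (log2 fold change -2.13, SE 0.17, adjusted p = 0.000636). SLC5A4, of the sodium and glucose cotransporter family, had 391, 224 and 249 in shlacZ and 56.7 and 62.8 in sh8. Each of these was lower in both sh8 libraries than in any control library. UCN2, urocortin 2, a ligand of the corticotropin-releasing hormone receptors, had 132, 134 and 254 in shlacZ and 31.6 and 53.7 in sh8, with the third shlacZ library well above the other two. ABCB5, a drug efflux transporter of the pigment lineage, had 198, 296 and 241 in shlacZ and 73.8 and 87.4 in sh8, whereas sh4 went further down, to 12.4 and 14.9. CDH7, a type II cadherin, had 181, 168 and 169 in shlacZ and 44.8 and 70.1 in sh8, and 16.9 and 14.2 in sh4. RORB, an orphan nuclear receptor, had 1344, 1239 and 1157 in shlacZ and 564 and 626 in sh8, and 224 and 195 in sh4, and the lncRNA LINC02223 had 2558, 2312 and 1956 in shlacZ and 1019 and 644 in sh8, and 317 and 219 in sh4. For these 4 genes the order of the group means was shlacZ, sh8, sh4.

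**Figure D4:**
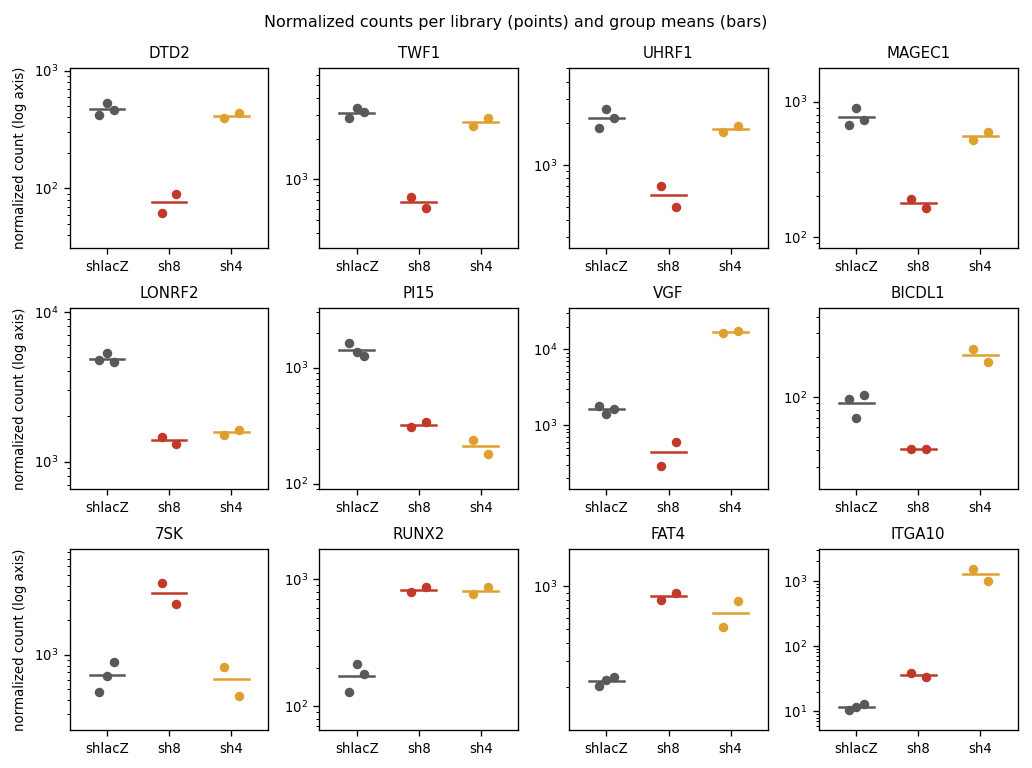
Normalized counts per library (points, log axis) and group means (bars) of 12 genes in the 3 shlacZ, 2 sh8 and 2 sh4 libraries. DTD2, TWF1, UHRF1 and MAGEC1 are lowest in sh8, LONRF2, PI15, RUNX2 and FAT4 move the same way under both hairpins, 7SK is high in sh8 only, and VGF, BICDL1 and ITGA10 separate the hairpins.

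The largest rise among the named genes was that of RNASE1, a secreted ribonuclease, which had 1.03, 4.19 and 8.70 normalized counts in shlacZ and 91.0 and 94.6 in sh8 (log2 fold change 4.33, SE 0.55, adjusted p = 0.00371). The control values are near the count of single reads, so the fold depends on the pseudocount. In sh4 it reached 312 and 396. With a shlacZ mean of 4.64, RNASE1 met the minimum mean for testing only through the hairpin libraries. Its adjusted p and its place among the rises are therefore not read as a result. OTULINL, a relative of the deubiquitinase OTULIN, had 37.2, 26.2 and 30.4 in shlacZ, 179 and 210.2 in sh8 and 645 and 1002 in sh4 (log2 fold change 2.61, SE 0.25, adjusted p = 0.00102). ZAP70, a kinase best known from T cell receptor signalling, had 8.26, 17.8 and 20.9 in shlacZ, 68.5 and 113 in sh8 and 355 and 357 in sh4. STC1, the secreted hormone stanniocalcin 1, had 38.2, 34.6 and 69.6 in shlacZ, 117 and 256 in sh8 and 702 and 781 in sh4, and CADPS, which primes dense-core vesicles for release, had 108, 200.1 and 213 in shlacZ, 713 and 635 in sh8 and 1591 and 1639 in sh4. In these 5 genes sh8 lay above the control and below sh4, and in 4 of them, all but RNASE1, the difference between the hairpins passed.

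For the other 6 of the 12 highest calls, the difference between the hairpins did not pass. RUNX2, a transcription factor of bone formation, had 130.0, 215 and 178 normalized counts in shlacZ, 799 and 865 in sh8 and 770.2 and 867 in sh4 (log2 fold change 2.28, SE 0.20, adjusted p = 0.000885, and difference from sh4 0.02, adjusted p = 0.965). CDK15, of the cyclin-dependent kinase family, had 11.4, 15.7 and 20.0 in shlacZ, 91.0 and 106 in sh8 and 89.2 and 119 in sh4. FAT4, an atypical cadherin, had 201.3, 223 and 234 in shlacZ, 805 and 899 in sh8 and 523 and 787 in sh4 (log2 fold change 1.95, SE 0.19, adjusted p = 0.00102). The sh8 libraries were above all control libraries in each. MXD4, a MAX partner that opposes MYC, had 82.6, 53.4 and 87.0 in shlacZ, 239 and 329 in sh8 and 276 and 175 in sh4. TRIM48 had 559, 813 and 895 in shlacZ, 2553 and 2919 in sh8 and 1722 and 1952 in sh4, and it belongs to a multigene family in which reads may be shared. MTHFD2P1 had 76.4, 225 and 169.6 in shlacZ, 635 and 645 in sh8 and 508 and 716 in sh4. It is a processed pseudogene of MTHFD2, a mitochondrial folate enzyme that moved the other way, from 1806, 2297 and 2094 to 1302 and 1242 (log2 fold change -0.69, adjusted p = 0.0282).

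Gene lists and symbol families were then described by counts and medians, beside the 1.38% of all genes that passed higher and the 1.54% that passed lower, and beside a median log2 fold change over all genes of -0.01. No set test was made. At an unadjusted p under 0.05, 8.85% of all genes tested were higher and 9.69% lower, which is the background of the unadjusted counts given for the lists. The median moved with the level, since genes with a mean of at least 1000 had a median of -0.06 and those from 10 to 50 a median of 0.15, and its part in the list medians was not tested.

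Genes of DNA replication leaned lower. Of 48 tested genes of S phase and replication, 47 had a negative log2 fold change, with a median of -0.35, and the median difference of sh8 from sh4 was 0.12. Only 2 passed, UHRF1 and CDC6, the loader of the replicative helicase, which had 2089, 2568 and 2269 normalized counts in shlacZ and 1628 and 1262 in sh8 (log2 fold change -0.68, SE 0.15, adjusted p = 0.0376). Genes of MYC and ribosome biogenesis had a median of -0.34, with 36 of 39 negative, and there NOLC1, a nucleolar chaperone, passed lower (log2 fold change -0.67, adjusted p = 0.0383) and MXD1, a MAX partner that opposes MYC, passed higher, with 108, 81.7 and 114 in shlacZ and 204 and 219 in sh8. Of 40 mitotic genes, ANLN alone passed and the median was -0.11. Respiratory chain genes had 45 of 50 values below 0 and a median of -0.20, and the one that passed was ATP5F1A, the alpha subunit of ATP synthase, with 3952, 5498 and 5101 in shlacZ and 2087 and 2451 in sh8 (log2 fold change -1.09, SE 0.17, adjusted p = 0.0121). UHRF1, ANLN and ATP5F1A each hold AAGGGTT, which occurred in 11.2% of all 11860 genes counted, and its part in their fall was not tested. CDC6 and NOLC1 passed lower without being called, and whether they hold the heptamer is not given here. Cytosolic ribosomal protein genes had a median of -0.14 with 0 of 78 passing by limma (1 at an unadjusted p under 0.05). RPL3, the first in the list, had 11743, 13034 and 12736 in shlacZ and 11224 and 13433 in sh8, and RPL4 had 25783, 26705 and 26391 in shlacZ and 23892 and 24769 in sh8. Replication-dependent and variant histones had a median of -0.37, and 2 of 74 passed, H2AC17 and H2AZ1.

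Cell cycle control was mixed. CCND1, cyclin D1, had 12244, 13455 and 17049.8 normalized counts in shlacZ, 6718 and 8562 in sh8 and 12731 and 13476 in sh4 (log2 fold change -0.90, SE 0.16, adjusted p = 0.0195, and difference from sh4 -0.79, adjusted p = 0.0271). Its partner kinase CDK6 went the other way, with 2514, 2269.8 and 2025 in shlacZ, 4062 and 3833 in sh8 and 1568 and 1527 in sh4, so that sh8 was above and sh4 below the control. CDK2, the kinase of cyclin E and a neighbour of the pigment gene PMEL, had 14681, 13195 and 12973 in shlacZ and 8640.3 and 8670.4 in sh8 (log2 fold change -0.65, adjusted p = 0.0191). Of the 29 genes of this list, 2 passed higher and 2 lower. Of 22 p53 targets, AEN, a nuclease, passed lower, with 944, 1319 and 1241 in shlacZ and 697 and 689.8 in sh8.

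Of 27 tested genes of the melanocyte lineage, 2 passed lower, ABCB5 and CDK2, and 1 passed higher, KIT, the receptor of stem cell factor, with 7227, 7191 and 6504 normalized counts in shlacZ and 10076 and 11203 in sh8 (log2 fold change 0.61, SE 0.11, adjusted p = 0.0210). The median of the list was -0.22, and 11 genes were lower at an unadjusted p under 0.05. Of the 11 tested genes of the dedifferentiated state, CCN2, a matricellular protein, passed higher, with 80.5, 209 and 134 in shlacZ and 379.6 and 378 in sh8, and the receptor kinase MET passed lower, with 11393, 13101 and 12747 in shlacZ and 6921 and 8019.6 in sh8. Of 6 EMT transcription factors, 0 passed by limma and 1 was higher at an unadjusted p under 0.05. The first of the list, ZEB2, had 11998, 11938 and 9859.8 in shlacZ and 14972 and 12312 in sh8 (log2 fold change 0.28, adjusted p = 0.316), and SNAI1 had 36.1, 58.7 and 77.4 in shlacZ and 38.2 and 53.7 in sh8.

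Adhesion and matrix genes passed mostly higher. Of 13 integrin subunits tested, 3 passed higher and 1 lower. ITGA1, a collagen-binding alpha subunit, had 129, 129.9 and 157 normalized counts in shlacZ, 361 and 499.6 in sh8 and 1561 and 1858 in sh4 (log2 fold change 1.61, SE 0.18, adjusted p = 0.00277). ITGA10, also collagen-binding, had 10.3, 11.5 and 13.05 in shlacZ, 38.2 and 33.7 in sh8 and 1522 and 975 in sh4, and ITGA9 had 859.7, 625 and 679 in shlacZ, 1501 and 1462 in sh8 and 1247 and 927 in sh4. ITGB8, a beta subunit that activates latent TGF beta, fell from 207, 169.7 and 137 to 71.2 and 42.8. Of 19 laminins and matrix glycoproteins, MATN3, LAMB1 and SPARC passed higher and none lower, with values of 2754, 4503 and 4146 in shlacZ and 6749 and 6981 in sh8 for SPARC, and 1246, 1881 and 1648 in shlacZ and 3139.8 and 3069.7 in sh8 for LAMB1. Of 15 proteases and inhibitors, MMP14, a membrane-anchored collagenase, passed higher (log2 fold change 1.08, adjusted p = 0.0195) and PI15 lower. Of 6 cadherins, CDH19 passed higher, with 515, 807 and 506 in shlacZ and 1197 and 1100.3 in sh8, and CDH7 lower. Of 17 collagens, 0 passed by limma (3 higher and 2 lower at an unadjusted p under 0.05). COL1A1, the first in the list, had 8.26, 5.24 and 13.9 in shlacZ and 13.2 and 8.19 in sh8, and COL5A2 9.29, 5.24 and 11.3 in shlacZ and 7.91 and 14.6 in sh8, all near the count of single reads.

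Of the protocadherins, adhesion proteins of neural cells, 16 reached the minimum mean for testing, and 8 of these had a mean under 10 in shlacZ, so that they were tested because of their level under the hairpins and no count or median over the 16 is read as a result. None passed by limma, and 10 had an unadjusted p under 0.05. The smallest adjusted p was 0.0649, for PCDHGB3, which had 5.90 ± 0.59 (SD, n = 3) in shlacZ and 28.2 ± 1.20 (SD, n = 2) in sh8. PCDHGA12 had 56.4 ± 24.8 (SD, n = 3) in shlacZ and 98.3 ± 10.3 (SD, n = 2) in sh8, and PCDH9 had 346 ± 43.2 (SD, n = 3) in shlacZ and 471 ± 47.4 (SD, n = 2) in sh8. Genes of the gamma cluster share their last exons, so their counts are not independent and reads may be split between them.

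Signalling lists each held a few genes that passed. In the WNT list, FZD6 and RNF43, a ligase that removes WNT receptors, passed lower and NKD1, a feedback inhibitor, higher. RNF43 had 490.2, 526 and 405 normalized counts in shlacZ, 268 and 282 in sh8 and 682 and 700.1 in sh4, and NKD1 had 622, 843 and 847 in shlacZ, 1417 and 1274 in sh8 and 2716 and 3673 in sh4. In the TGF beta and BMP list of 41, BMPR2, the type II BMP receptor, had 4569, 6208 and 6456 in shlacZ and 13761 and 14442 in sh8 (log2 fold change 1.31, SE 0.16, adjusted p = 0.00328), and SMAD3 and SMURF2 also rose, whereas TGFBR3, the betaglycan co-receptor, fell from 1507, 1263 and 1250.1 to 701 and 732. The receptor, the signal transducer and the ligase thus passed higher, and 2 genes of the list passed lower. In the Notch list of 22, the ligand JAG1 had 8357, 7646 and 8994 in shlacZ and 4082 and 4561 in sh8, the target HES1 541, 543 and 579 in shlacZ and 308 and 304 in sh8, and both fell. The coactivators MAML2 and MAML3 rose, with log2 fold changes of 0.74 and 0.56. In the ERK feedback list of 25, SPRY1, EPHA4 and ETV1 passed higher and CCND1 lower. EPHA4 had 1919.7, 2449 and 2864 in shlacZ, 4024 and 4662 in sh8 and 2319.7 and 2230.1 in sh4. Of 20 Hippo genes, the kinase LATS2 and the phosphatase PTPN14 passed higher, with log2 fold changes of 0.57 and 0.51.

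Of 33 interferon-stimulated and RNA-sensing genes, 0 passed by limma, and 2 were higher and 0 lower at an unadjusted p under 0.05. EIF2AK2, the double-stranded RNA kinase PKR, had 3296, 3145 and 3379 normalized counts in shlacZ and 2648 and 2878 in sh8 (log2 fold change -0.25, adjusted p = 0.281), and IFI6 had 207, 149.8 and 178 in shlacZ and 174 and 250.3 in sh8. Of 20 genes of MHC class I presentation, 0 passed by limma, with 1 higher at an unadjusted p under 0.05. HLA-B had 82.6, 78.6 and 90.5 in shlacZ and 79.1 and 123 in sh8, and the groups overlapped. Of the IL6, JAK and STAT3 list, 18 of 20 values were positive with a median of 0.29, and A2M, a secreted protease inhibitor, was the one that passed, with 144, 133 and 143 in shlacZ and 283 and 508 in sh8. Of 24 TNF and NF-kB genes, NFKB1, which encodes the p105 and p50 proteins, passed lower, with 971, 1240.1 and 1147 in shlacZ, 579 and 609 in sh8 and 1058 and 1214 in sh4. The machinery that makes small RNAs gave 0 of 15 past the test by limma and 0 at an unadjusted p under 0.05, and DROSHA had 4149, 4180.2 and 3766 in shlacZ and 4359 and 3528 in sh8, with DGCR8 at 1445, 1229 and 1049 in shlacZ and 1554 and 935 in sh8.

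Secretion, lysosome and transport genes were split. Of 12 granins and vesicle proteins, CADPS and the amidating enzyme PAM passed higher, and VGF lower. PAM had 623, 513 and 591 normalized counts in shlacZ, 871 and 939 in sh8 and 1709 and 2106 in sh4. Of 51 lysosomal genes, FUCA1, MCOLN3 and ATP6V0A1 passed higher and none lower, and FUCA1, a fucosidase, had 240.5, 279 and 339 in shlacZ and 642 and 932 in sh8 (log2 fold change 1.45, adjusted p = 0.0109). Of 46 axon guidance genes, 35 were positive, the median was 0.31, and SEMA3A, with 335, 248 and 311 in shlacZ and 569 and 643 in sh8, and the receptor ROBO2, with 1200.3, 1096 and 992 in shlacZ and 2009 and 1888 in sh8, passed higher. Amino acid carriers went both ways. SLC7A8 rose from 1995, 2898 and 3192 to 5702 and 6642, SLC7A1 fell from 6141, 7131 and 7162 to 3562 and 3734, and SLC7A5, with MTHFD2 a gene of the integrated stress response list, fell from 3958, 6044 and 4869.9 to 2756 and 2428. Of the 34 genes of the unfolded protein and integrated stress response list, MTHFD2 and SLC7A5 passed lower and none higher. ABCC4, an efflux pump, had a log2 fold change of -0.57 (adjusted p = 0.0462). In the hypoxia and glycolysis list, STC1 and the glucose transporter SLC2A1, with 1209.6, 1656 and 1813 in shlacZ and 2917 and 3199 in sh8, passed higher and none of the 30 lower, although the median was -0.18. Of 25 genes of cholesterol synthesis, 0 passed by limma and 1 was higher at an unadjusted p under 0.05, and HMGCS1 had 985, 1934 and 1844 in shlacZ and 1286 and 1314 in sh8.

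**Figure D5:**
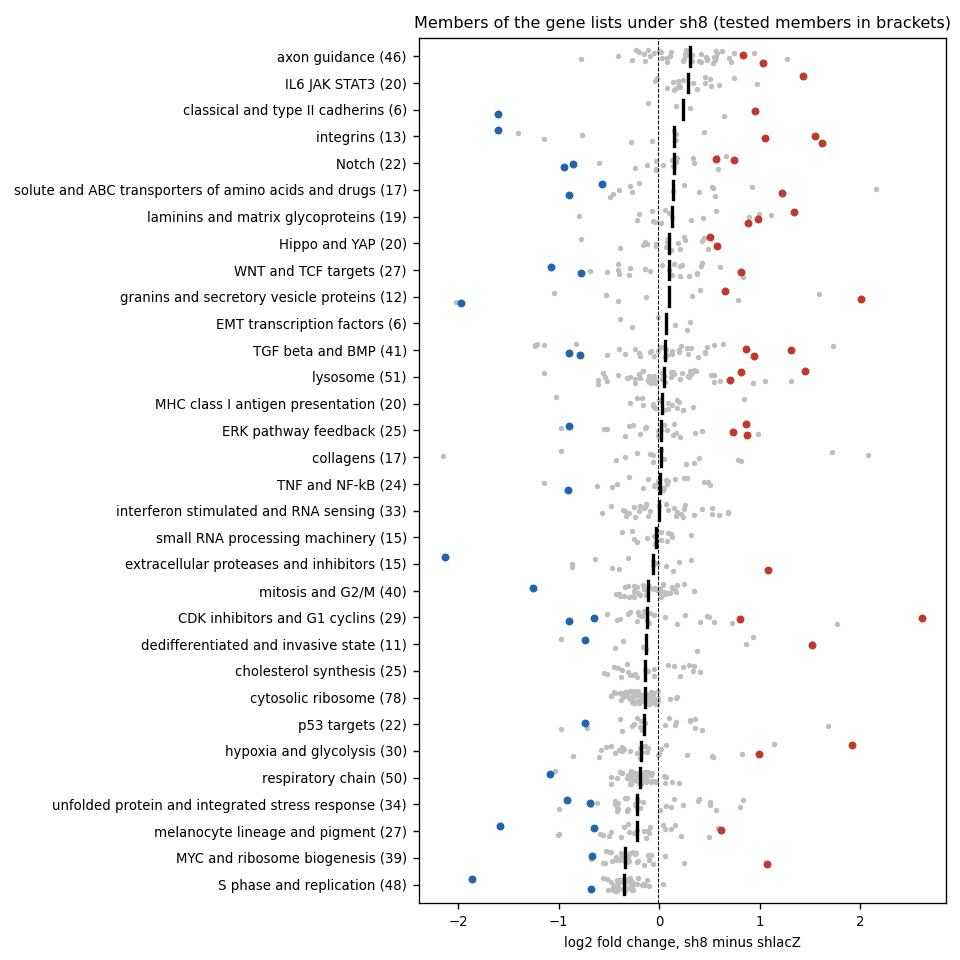
Log2 fold change of sh8 minus shlacZ (horizontal axis) of every tested member of 32 gene lists (rows, with the number tested), grey where the adjusted p did not pass, red where it passed higher and blue where it passed lower, with black bars at list medians and a dashed line at the median of all genes. The medians run from -0.35 for S phase and replication to 0.31 for axon guidance, and most lists have under 5 genes past the test.

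The larger symbol families were read against the 1.15% of all genes called. Of 452 ZNF zinc finger genes, 2 were called (0.442%), of 408 antisense transcripts 1 (0.245%), of 234 LINC transcripts 3 (1.28%) and of 225 SLC carriers 6 (2.67%). Of 28 MAGE and GAGE cancer-testis genes, 2 were called, MAGEC1 and XAGE1A. The 15 mitochondrially encoded genes had a median of 0.30 under sh8, with 0 past the test by limma and a smallest adjusted p of 0.0962. Among 10475 RefSeq promoters (300 bases, GRCh38.p14), the TATA letters TATAAA were found in 9 of 68 promoters of genes called higher (13.2%) and 5.65% of all, and the AP-1 letters TGANTCA in 7 of 56 of the genes called lower (12.5%) and 4.30% of all. The CCAAT letters were in 38.2%, 37.5% and 37.7% of the promoters of genes called higher, called lower and of all. For the TEAD letters CATTCC the shares in the same order were 16.2%, 8.93% and 10.6%, for the TCF letters CTTTGA 10.3%, 12.5% and 8.83%, and for the E-box CACGTG 10.3%, 10.7% and 10.1%. The E-box CATGTG was found in 5.88%, 8.93% and 6.73%, and the CRE in 2.94%, 5.36% and 3.45%. These shares are a description on both strands, without a test.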

How the data were processed

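RNA of doxycycline-treated 501Mel pools was depleted of ribosomal RNA and made into stranded libraries. The authors trimmed the reads with Cutadapt, aligned them to hg38 with STAR, quantified them with Salmon and scaled them with DESeq2, with versions not given in the sources used here, and they deposited normalized counts with decimals. All 7 columns were mapped to labels, with 0 left unmapped. Every value (100%) was a whole multiple of the worth of 1 read within a tolerance of 0.1 reads, which gave the totals of counted reads.

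Genes with a mean of at least 10 were tested with limma (version 3.58.1, R version 4.3.3). A pseudocount of 1 was added before taking log2, and 1 fit of the 3 groups used a variance trend. Fold changes are on that scale and understate changes of low genes. P-values were adjusted by Benjamini-Hochberg over all genes tested. The fit was also run on simulated counts with 1 fixed spread setting for every gene. That run does not show how the fit deals with the uneven spread of these libraries. Other pseudocounts (0.5 and 10), minimum means, scalings, variance models, a replicate block and the omission of each library were tried.

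The genes named were GRASLND and the tested genes near it. Added to these were the 12 highest and 12 lowest calls with a symbol and a mean of at least 50, the 5 highest and 5 lowest of those calls by the difference from sh4, and up to 4 genes per list that passed, or the first 2 where none did. The mean of at least 50 was taken over the 7 libraries. Some genes, among them RNASE1, ZAP70 and CDK15, reached it only through the hairpin libraries. RNASE1 and TMEM158 also met the minimum mean for testing only through the hairpin libraries. The members and gene lists were chosen with earlier results of these data known, and the heptamer search was chosen after seeing the data. Gene positions and 3′ UTRs came from GENCODE 44 (hg38) and promoters from RefSeq. Some genes are not reported here.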

Additional observations from a re-analysis of the deposited data

Results flagged for a closer look

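The following named genes were flagged because they were called under sh8 and the effect of sh8 differed from that of sh4. The second condition was an adjusted p under 0.05 and a log2 difference over 1 by the direct limma comparison of the hairpins. CDK6 (1.35), RNF43 (-1.33), NKD1 (-1.23), MTHFD2 (1.12), PAM (-1.07) and MET (1.0004) met the second condition. They are not listed below because their log2 fold change under sh8 was under 1 in size. Each value is the sh8 effect minus the sh4 effect on the log2 scale, with 2 libraries per hairpin. Both effects share the shlacZ control. TMEM158, listed below, had a shlacZ mean of 9.20 and met the minimum mean for testing only through the hairpin libraries. Its flag is therefore not read as a result.

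Among the flagged genes that fell under sh8, those lower than in sh4 were VGF (-5.35), DTD2 (-2.46), BICDL1 (-2.29), TWF1 (-1.98), FZD6 (-1.77), MAGEC1 (-1.65), UHRF1 (-1.61) and ANLN (-1.31). Those that stayed above the sh4 level were the efflux transporter ABCB5 (2.48), the cadherin CDH7 (1.79), the lncRNA LINC02223 (1.62) and the nuclear receptor RORB (1.51).

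Among the flagged genes that rose under sh8, 7SK was higher than in sh4 (2.56). The others rose less than under sh4. They were the integrin subunits ITGA10 (-5.05) and ITGA1 (-2.001), the membrane protein TMEM158 (-2.49), the hormone STC1 (-2.09), OTULINL (-2.04), the kinase ZAP70 (-2.003), the vesicle priming factor CADPS (-1.26), the matrix protein MATN3 (-1.22) and the guidance cue SEMA3A (-1.10).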

How the results depend on the processing

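The 178 calls were 141 to 191 under both pseudocounts, both minimum means, both scalings, voom on the recovered reads and a fit of sh8 and shlacZ alone, though that fit passed 299 genes at the adjusted p in place of 451. Without the variance trend, 57 genes were called (30 higher and 27 lower), 59 passed and 16 calls differed from sh4. The edgeR and DESeq2 alternatives were not run. The deviations of same-numbered samples correlated at 0.117 (shlacZ 1 and sh8 1), -0.0781 (shlacZ 2 and sh8 2), 0.337 (shlacZ 1 and sh4 1) and 0.213 (shlacZ 2 and sh4 2). Since 1 of these 4 was below 0.1 and the labels give the number no meaning, the pairing was not taken as shown. The replicate block gave 242 calls, of which 161 were among the 178.

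Leaving out each library in turn gave 51 to 411 calls (21 to 285 higher and 30 to 126 lower), 53 to 1600 genes past the adjusted p, 17 to 87 calls that differed from sh4, 5 to 166 list members past the test, and 33.6 to 51.5% of the genes called lower with AAGGGTT. Calls numbered 411 without shlacZ 1, 108 without shlacZ 2, 86 without sh8 1 and 51 without sh8 2, and 19 calls differed from sh4 without sh4 2. A lone sh8 library was assumed to vary like the other groups. The log2 fold change of GRASLND ran from -0.92 to -0.44. The cause of these shifts was not tested.

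Of the 81 named genes that passed, 11 kept the threshold in all 17 alternatives (DTD2, FAT4, ITGA1, LONRF2, MAGEC1, OTULINL, PI15, RUNX2, TRIM48, TWF1 and UHRF1) and 70 lost it in at least 1. Of the 32 list medians, 18 kept 1 sign over 8 settings. The sign turned in 8 genes. Under quantile normalization, DROSHA was 0.0082, DGCR8 0.021, RPL3 0.047 and RPL4 0.056. Over the omissions, COL1A1 ran from -0.050 to 0.59 (-0.042 without shlacZ 2), COL5A2 from -0.053 to 0.75, IFI6 from -0.024 to 0.50, HLA-B from -0.081 to 0.55, DROSHA from -0.19 to 0.11, DGCR8 from -0.40 to 0.34 (0.086 without shlacZ 1) and RPL3 from -0.15 to 0.10 (0.0058 without shlacZ 2).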

Other observations

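PTCH1 and GLI3, chosen after their values were seen, also rose under sh8. PTCH1, the Hedgehog receptor, had 386, 368 and 342 normalized counts in shlacZ, 935 and 1040.2 in sh8 and 1076 and 1112 in sh4 (log2 fold change 1.43, SE 0.13, adjusted p = 0.000885). GLI3, a transcription factor of the pathway, had 496, 485 and 505 in shlacZ, 1312 and 1331 in sh8 and 1592 and 2035 in sh4 (log2 fold change 1.41, SE 0.13, adjusted p = 0.00102). For both genes the hairpin libraries lay above all control libraries.

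CILK1, a ciliary kinase whose gene lies 5328 bases from 7SK on chromosome 6, was also chosen after its values were seen. It fell from 1747, 1745 and 1790.3 normalized counts in shlacZ to 807 and 735 in sh8, with 1248 and 1287 in sh4 (log2 fold change -1.19, SE 0.11, adjusted p = 0.00102).

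Some short transcripts swung between libraries of the same group and were not called. RNU2-1, a U2 spliceosomal RNA gene with near-identical copies, had 381, 16468 and 564 normalized counts in shlacZ, 9083 and 37868 in sh8 and 595 and 30079.9 in sh4. SCARNA2, a guide RNA of Cajal bodies, had 2035, 1401 and 153 in shlacZ, and in sh8 it was listed at 0 in the first library and at 1980.3 in the second.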
